A study of Solanum tuberosum with 8 samples.

Results

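Tubers of high starch content that differed in the expression of *AGPaseS-a* were compared by RNA-seq, as bulk H1 (high starch, strong *AGPaseS-a* expression) against bulk H2 (high starch, weak *AGPaseS-a* expression). The comparison took 4 of the 8 libraries of the series, 2 per bulk. The sample labels alone decided which libraries it holds, but the comparison itself was chosen with earlier results of these data known. All plants came from the diploid hybrid population 12-3 of potato (*Solanum tuberosum*), were untreated, and gave fully developed tubers after harvest. Each library was made from RNA pooled over several F1 plants, so a value is an average over genotypes that also differ at many other loci. The remaining 4 libraries were bulks L1 and L2, the same *AGPaseS-a* classes in tubers of low starch content. They entered the fit, and they served as a second set of libraries in which the same contrast could be read. The study's methods call replicates A and B of a bulk biological replicates, but no source used here says whether both pooled RNA of the same plants.

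AGPase (ADP-glucose pyrophosphorylase) makes ADP-glucose, the glucosyl donor of the starch synthases, in the amyloplast. The plant enzyme is a heterotetramer of large and small subunits, and in potato AGPaseS names large subunit loci. Branching and debranching enzymes then shape the glucan chains, and phosphorylases, amylases and dikinases take them apart. Potato tubers also store patatin and proteinase inhibitors, and they make the steroidal glycoalkaloids α-solanine and α-chaconine from cholesterol.

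The *AGPaseS-a* class of the plants was set before sequencing, by a method for which the study refers to earlier work. The study's primers for *AGPaseS-a* transcripts are shown because that gene names the classes, and they are followed by its RT-PCR primers for *IRL* and *SWEET12-like*, which are described further on. The letters are those of the study's primer lists, 5′ to 3′, in lower case. In those lists the first pair is named AGPaseS-a1334, a name that the study also gives to a marker allele.
AGPaseS-a forward: tcatgatgggagcagactcctacc
AGPaseS-a reverse: ctttcctatctttgcgttcttgt
IRL forward: ttttgagatagagccatcgt
IRL reverse: cccgtctctgatgacatagt
SWEET12-like forward: tggagactagaagaaaggcgt
SWEET12-like reverse: tcttcttagctccagtgcca
Which annotated AGPase gene the *AGPaseS-a* primers match was not determined here, so the check of the class labels below covers all AGPase genes.

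H1 held 15293539 (replicate A) and 20344661 (replicate B) counts over all genes, and H2 held 27545656 and 24667778. The L1 and L2 libraries held 27543719 to 31943185 counts. H1 replicate A and H2 replicate B stood apart from the other libraries. Genes of the plastid genome summed to 417 CPM (counts scaled by TMM to a common library size) in H1 replicate A and 256 in H2 replicate B, against 40.8 to 70.5 in the other 6 libraries. Pearson's correlation of log2 CPM across genes, which are not independent replicates, was 0.897 between the H1 replicates and 0.917 between the H2 replicates, while H1 replicate B and H2 replicate A reached 0.952. H1 replicate A and H2 replicate B also had relatively more counts on short genes, with a median deviation of 0.25 and 0.24 (log2) in the shortest genes and -0.30 and -0.20 in the longest, when genes were cut into 5 equal classes of length. Genes of photosynthesis, marking green tissue, summed to 802, 552, 433 and 880 CPM in H1 replicates A and B and H2 replicates A and B, histone and cyclin genes to 5480, 3380, 3120 and 5300, and periderm genes to 502, 452, 451 and 507. Genes of cytosolic ribosomal proteins summed to 101000, 52900, 54200 and 81300 CPM in the same order. All of these lists were thus higher in the libraries that stood apart, 1 in each bulk, than in the other high starch libraries, and their part in the results was not tested. L1 replicate A, which did not stand apart by the plastid genome, held 860 CPM of photosynthesis genes. Tuber storage markers were abundant in all 4 libraries, at 19000 to 25500 CPM for patatins and 34000 to 53700 CPM for proteinase inhibitors.

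None of the 3 AGPase genes with enough counts to test separated the *AGPaseS-a* classes in these libraries. *AGPS1* (annotated as AGPase large subunit 1-like) lies at NW_006239449.1:264717-269691 on the minus strand of SolTub_3.0. It was at 2260 and 2220 CPM in H1 replicates A and B and at 2840 and 1310 in those of H2. The H2 libraries thus lay on either side of both H1 libraries, with a log2FC (H1 over H2, positive where H1 is higher) of 0.11 ± 0.396 (SE). The small subunit gene LOC102577790, at NW_006239594.1:15188-21066, was at 1960 and 1100 CPM in H1 and 1690 and 1490 in H2. The large subunit 2 gene LOC102600909, at NW_006239009.1:1324794-1330455, was at 26.9 and 51.5 CPM against 40.1 and 41.9. In both of these genes the H2 libraries lay within the range of the H1 libraries, and the log2FC was -0.06. Unadjusted p was 0.789, 0.890 and 0.850 for the 3 genes in edgeR's quasi-likelihood test. The other annotated AGPase genes, LOC102582750 (large subunit 3-like) and LOC102598180 (inactive small subunit 2-like), were too low to test. LOC102582750 had 0 and 0 counts in H1 and 1 and 7 in H2, so its few counts lay in the class of weak *AGPaseS-a* expression, and LOC102598180 had 0 counts in each of the 4 libraries. For the 3 tested genes, a difference between H1 and H2 was not detectable at this depth and spread, and alleles of 1 gene cannot be told apart in counts per gene. The study itself states that *AGPaseS-a* was hard to analyse in its RNA-seq. It gives a small transcript size or sequence shared with other transcripts as potential reasons, which were not tested here.

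Genes of starch synthesis and breakdown did not pass the test either. A gene is said here to pass where edgeR gave an unadjusted p under 0.05 and both libraries of one bulk lay above both of the other. Of the 19 tested genes of starch synthesis 0 passed, and of the 20 of starch breakdown 0 passed, where 2.92% of all 20389 tested genes did. The log2FC ranged from -0.58 to 1.35 in synthesis and from -1.43 to 0.49 in breakdown, with a median of -0.06 and -0.07. *GBSS*, the granule-bound starch synthase that makes amylose, was at 1880 and 2540 CPM in H1 and 3940 and 2680 in H2. Its libraries did not overlap, but the log2FC of -0.58 ± 0.33 (SE) had an unadjusted p of 0.114. A second synthesis gene without overlap was LOC102590711 (1,4-alpha-glucan-branching enzyme 2-2), at 104 and 99.1 CPM against 81.3 and 75.5. The lowest p of the breakdown genes was 0.0634, for LOC102598863 (alpha-amylase-like), a gene of low level with 0.635 and 1.45 CPM in H1 and 3.26 and 2.45 in H2.

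**Figure D1:**
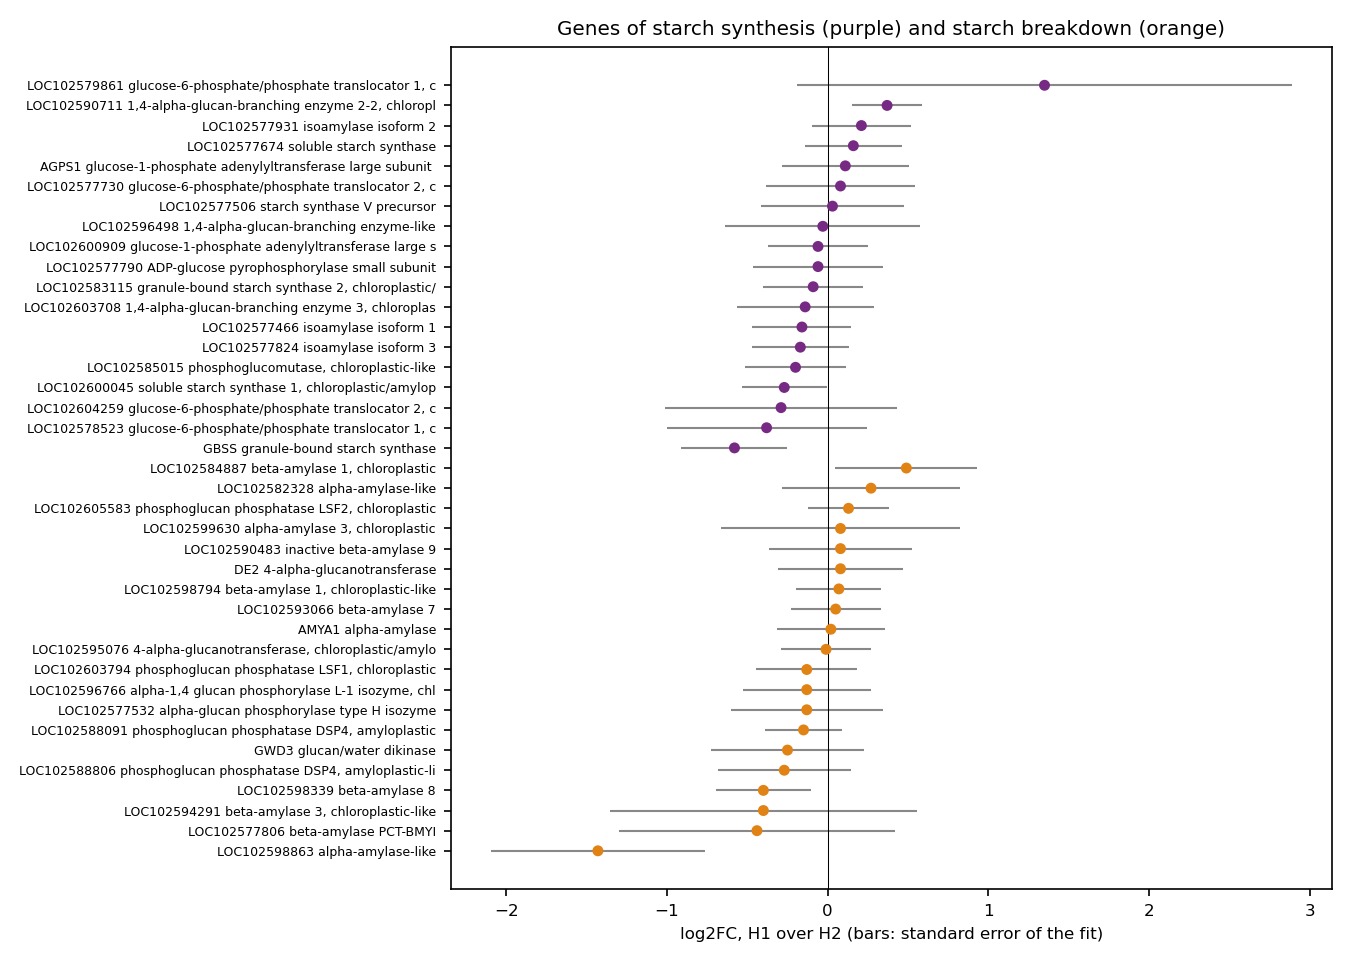
Log2FC of H1 over H2 (x axis) for the tested genes of starch synthesis (purple) and starch breakdown (orange). Bars show the standard error, taken as the absolute log2FC over the square root of the test's F statistic. The points lie between -1.43 and 1.35 around a median near 0, and none of these genes passed.

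Across all genes, the classes differed by less than the spread between replicates allowed to be called. With limits of 0.05 on the FDR and 1.5 on the absolute log2FC, edgeR's quasi-likelihood test (Benjamini-Hochberg adjustment) called 0 of 20389 genes (0.0%). An unadjusted p below 0.05 was found for 619 genes (3.04%), of which 295 were higher in H1 (1.45%) and 324 higher in H2 (1.59%). The lowest FDR in edgeR's test was 0.502, and for every other gene it rounded to 1.0. In 4509 genes (22.1%) the libraries of the bulks did not overlap, 2081 higher in H1 (10.2%) and 2428 higher in H2 (11.9%). Of these, 595 passed (2.92%), 277 higher in H1 (1.36%) and 318 higher in H2 (1.56%). An absolute log2FC of at least 1.5 was reached by 340 of them (1.67%), 158 higher in H1 (0.775%) and 182 higher in H2 (0.893%). DESeq2 called 26 genes, 18 higher in H1 and 8 higher in H2, and in all of these the libraries did not overlap. Because no gene passed the adjusted edgeR test, which is the one used here, the genes named in what follows describe these libraries, and "higher" is used for genes whose libraries did not overlap.

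The 340 genes were mostly of low level, with a median of 1.14 CPM over the 4 libraries against 9.46 for all tested genes. There were 20 genes with no count in either H2 library and 46 with none in either H1 library, and the H1 libraries were the shallower ones. Intervals and lower bounds given for such genes cover counting error only. In a bulk sample, fewer cells of a type and less RNA per cell cannot be told apart.

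The gene with the smallest p was LOC102600338, which is annotated as uncharacterized, at NW_006239476.1:289749-292472. It was at 12.2 and 18.8 CPM in H1 and at 2.13 and 1.76 in H2, a log2FC of 2.99 ± 0.356 (SE) with a Benjamini-Hochberg FDR of 0.502 in edgeR's quasi-likelihood test. Both H1 values lay far above both H2 values, which a choice by smallest p favours. Leaving out any 1 of the 4 libraries gave a log2FC of 2.64 to 3.26. DESeq2 called LOC102600338, with an FDR of 8.57e-10. The low starch libraries entered the choice of this gene through the filter on counts, the TMM scaling and the shared estimate of the spread. In low starch tubers LOC102600338 was at 21.1 and 18.6 CPM in L1 and 1.65 and 1.58 in L2. The classes were thus separated in the same direction there (log2FC 3.62 ± 0.363, SE, unadjusted p 6.83e-06, FDR 0.139, edgeR's quasi-likelihood test).

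*IRL* (LOC102596717, at NW_006238958.1:454613-457497) encodes an isoflavone reductase-like protein, of a family of reductases in phenylpropanoid metabolism. It was at 48.4 and 58.0 CPM in H1 and 7.02 and 5.03 in H2, with a log2FC of 3.14 ± 0.47 (SE), and DESeq2 called it with an FDR of 8.34e-07. In low starch tubers the order was different, with 6.93 and 14.7 CPM in L1 and 20.3 and 10.9 in L2, where the libraries overlapped. The difference between the contrasts had an unadjusted p of 0.000356 and an FDR of 1.0 (edgeR's quasi-likelihood test), so it did not pass. *IRL* was among the genes that the study selected on these libraries, from comparisons of starch content.

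Several other genes of small p that were higher in H1 have an annotated product. LOC102595732, annotated as a pheophytinase, an enzyme that removes phytol from pheophytin in chlorophyll breakdown, was at 3.73 and 5.65 CPM in H1 and had 0 and 1 counts in H2. The ratio of its pooled levels was 254, with a 95% exact counting interval of 45.0 to 10100. LOC102601174 (UDP-glucose flavonoid 3-O-glucosyltransferase 6-like) was at 10.1 and 9.62 CPM in H1 against 0.425 and 1.25 in H2. LOC102583692 (extensin-1, a structural glycoprotein of the cell wall) was at 19.8 and 13.5 CPM in H1 against 3.01 and 1.29 in H2. These H1 replicates lay close together compared with the distance to H2, which a choice by small p and no overlap favours. The log2FC of the last pair was 3.57 ± 0.766 and 2.94 ± 0.647 (SE).

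The remaining genes of the 12 with the smallest p that were higher in H1 carry no informative product name. LOC107063081 and LOC102580013 had no count in H2, and their pooled level in H1 was at least 28.8-fold and 19.2-fold higher, respectively, with a floor of 3 counts over the bulk. LOC102592319 was at 4.68 and 5.32 CPM in H1 and 0.638 and 0.344 in H2. It is located at NW_006239449.1:304924-306039, on the scaffold of *AGPS1* and 35.2 kb from it, and that neighbourhood was noticed after the values were seen. Of the 28 tested genes of this scaffold 2 passed, both higher in H1 (7.14%, against 1.36% of all tested genes). The second was LOC102592890 at 14.6 kb from *AGPS1*. For LOC102594732, the values were 6.27 and 5.51 CPM against 1.03 and 0.687. LOC102579901, LOC107060617 and LOC102597777 had a log2FC of 4.42, 3.04 and 1.53. Of these, LOC107060617 differed most between its H1 replicates, with 2.86 and 12.2 CPM.

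Among the 12 genes of smallest p that were higher in H2, LOC107059642 (glutamine synthetase-like, at NW_006238956.1:1062502-1063713) came first. Glutamine synthetase assimilates ammonium. The gene was at 0.238 and 0.233 CPM in H1 and 2.76 and 3.87 in H2, with a log2FC of -3.79 ± 0.654 (SE). The low starch libraries were at 1.57 and 1.95 CPM in L1 and 3.74 and 2.73 in L2, so the order was the same there, at a log2FC of -0.88 with an unadjusted p of 0.148.

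Genes for glycosyltransfer, cytochromes P450 and DNA binding were also in this group. LOC102592842 (cytochrome P450 83B1-like, at NW_006239205.1:251536-256665) was at 6.27 and 7.70 CPM in H1 and 45.7 and 41.9 in H2, with a log2FC of -2.64 ± 0.609 (SE). LOC102584161 (scopoletin glucosyltransferase-like) was at 6.99 and 12.2 CPM against 41.7 and 35.9, and LOC102603582, an AT-hook motif nuclear-localized protein, at 8.97 and 6.35 against 40.3 and 25.7. All of these differed by more between the bulks than within them, which follows largely from their choice by small p and no overlap. In low starch tubers none of the 3 passed.

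LOC102590569 is named histone H3.v1-like in the annotation, but the Swiss-Prot protein given for it in the deposited tables is WVD2-like, a microtubule-associated family. It was at 0.0794 and 0.140 CPM in H1 and 2.02 and 7.26 in H2. LOC102583450 (pollen allergen Che a 1) was at 1.98 and 0.654 CPM against 6.10 and 12.7. Both were also lower in L1 than in L2 without overlap, with a log2FC of -3.28 and -1.97. LOC102587781, a guanine nucleotide exchange factor of Rop GTPases, was at 0.715 and 1.35 CPM in H1 and 8.75 and 3.05 in H2. LOC102605459 (auxin-induced protein PCNT115-like) was at 11.4 and 9.57 CPM in H1, while its H2 replicates differed widely, at 72.5 and 20.8. The uncharacterized genes LOC102590531, LOC102603175, LOC102578464 and LOC107062800 completed the 12, with a log2FC of -2.27, -1.87, -5.87 and -3.80. The value for LOC102578464 rests on a single count in H1, and the ratio of its pooled levels was 65.4 (95% exact counting interval 11.5 to 2610).

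**Figure D2:**
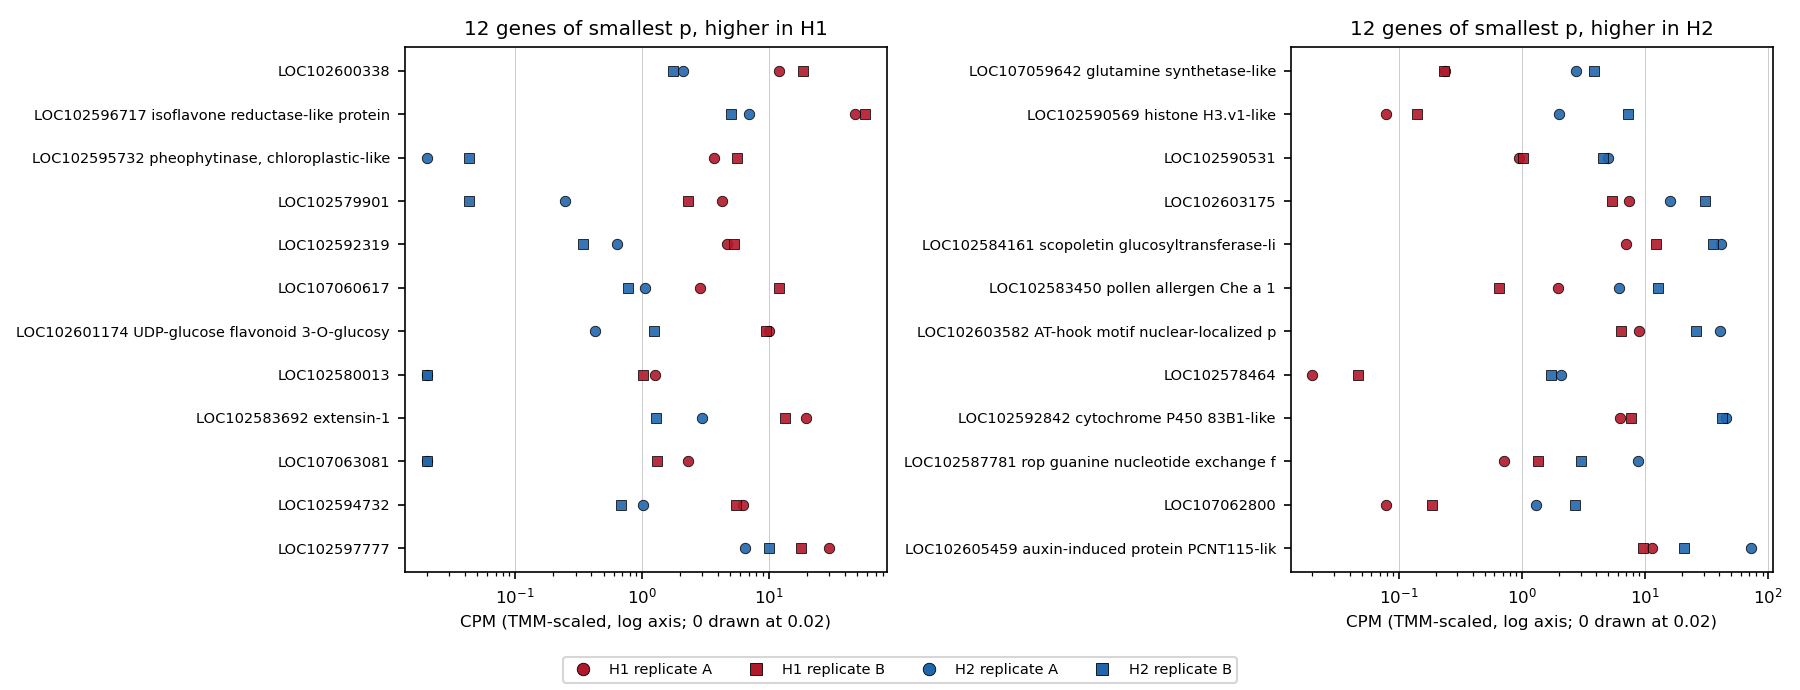
CPM (TMM-scaled, log axis, values of 0 drawn at 0.02) of the 12 genes with the smallest p in each direction, in H1 (red) and H2 (blue), with circles for replicate A and squares for replicate B. In each gene the libraries of a bulk lie on one side of those of the other, as the choice requires, for example 48.4 and 58.0 against 7.02 and 5.03 CPM for *IRL*.

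The lists of genes by function held few genes that passed, and the counts are given against the 1.36% and 1.56% of all tested genes that passed as higher in H1 and in H2. Of 39 genes of sucrose cleavage and hexose phosphorylation, 1 passed in each direction. These were LOC102593810, higher in H1 at 19.5 and 43.7 CPM against 10.8 and 10.8, and LOC102604100, a cell wall invertase with 0 counts in H1 and 0.638 and 0.301 CPM in H2. The first is an ATP-dependent 6-phosphofructokinase, an enzyme of glycolysis that entered the list by the letters of its name. Of 30 genes of sugar transport 2 passed, both higher in H1 and both of the SWEET family of sugar facilitators. *SWEET12-like* (LOC102591902) was at 3.89 and 8.40 CPM in H1 and 0.319 and 0.516 in H2, and LOC102584909 (SWEET16-like) at 8.89 and 3.03 against 2.37 and 0.816. Both also had a positive log2FC in L1 over L2, with unadjusted p of 0.0726 and 0.0763 (edgeR's quasi-likelihood test), so neither passed. For *SWEET12-like* this rested on L1 replicate A, at 33.3 and 4.18 CPM in L1 against 7.44 and 3.39 in L2, where the libraries overlapped. LOC102584909 was at 6.46 and 8.04 CPM against 3.70 and 1.64.

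Storage and defence proteins differed in both directions. Of 20 genes with patatin in the product name 2 passed, both higher in H2. These were LOC102605882 (132 and 147 against 317 and 190 CPM) and LOC102606222 (32.3 and 39.7 against 79.1 and 47.5), annotated as patatin-like proteins 2 and 3 and not as patatins. Without H2 replicate A their log2FC was -0.44 and -0.40 in place of -0.86 and -0.81. Of 11 genes in the list of seed storage globulins 1 passed in each direction. LOC102587356, a 12S globulin, was at 115 and 128 CPM in H1 and 61.2 and 40.4 in H2, while LOC102600491, another 12S globulin, was at 68.7 and 80.1 against 274 and 98.7. Proteinase inhibitors had 2 of 54 higher in H1 and 4 of 54 higher in H2. LOC102605542 (wound-induced proteinase inhibitor 1-like) was at 4.37 and 10.4 CPM against 0.532 and 0 CPM, and LOC107063047 (metallocarboxypeptidase inhibitor-like) at 40.8 and 51.9 against 29.2 and 17.9. Those higher in H2 were LOC102595246 and LOC102594586, cysteine protease inhibitors at 1170 and 759 against 2020 and 1420 CPM and at 128 and 47.7 against 173 and 182, and LOC102580870 and LOC102586688, which had no count in H1. Reads of such families may be split between near-identical copies, so the values of single members are uncertain.

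Of 34 MLP and pathogenesis-related genes 0 passed as higher in H1 and 3 as higher in H2. In *PR-5/319* this rested on H2 replicate A, at 77.4 CPM against 3.91 in H2 replicate B and 3.02 and 2.15 in H1, and without that replicate the log2FC was -0.60. Of 39 glutathione S-transferases, enzymes that conjugate glutathione to reactive compounds, 4 passed, all higher in H2. Ethylene response genes had 5 of 114 higher in H1 and 2 higher in H2. LOC102590521 (ERF017-like) had 1.59 and 0.467 CPM in H1 and no count in H2, LOC102597083 (ethylene-responsive transcription factor 1-like) was at 26.0 and 21.7 against 12.4 and 3.52 CPM, and 2 homologs of ACC oxidase, LOC102597881 and LOC102598531, had 0 or 1 count in each H2 library.

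Phenylpropanoid and flavonoid genes had 6 of 112 in each direction. *CHS2*, a chalcone synthase at the entry to flavonoid synthesis, was at 2.30 and 6.86 CPM in H1 and 11.5 and 11.9 in H2, and LOC102592699 (flavonoid 3-O-glucosyltransferase 7-like) at 134 and 189 against 74.9 and 84.1. Cytochromes P450 had 3 of 132 higher in H1 and 5 higher in H2. The other lists had at most 2 genes that passed in a direction, namely 1 of 107 late blight resistance homologs (H1), 1 of 32 oxylipin genes (H2), 2 of 55 heat shock proteins (H2), 1 of 96 cell wall genes in H1 and 2 in H2, 1 of 23 aquaporins (H2) and 1 of 53 WRKY factors (H2). Of the lists that stand for other tissues or for RNA quality, 0 of 217 ribosomal protein genes passed, 0 of 10 plastid genome genes, 1 of 53 photosynthesis genes, 2 of 54 periderm genes and 1 of 94 histone and cyclin genes, all of these higher in H2. The last of these was LOC102590569, whose name is doubtful as given above.

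Several genes of the sterol and glycoalkaloid pathway were higher in H1. This list was put together after the values were seen, so its count is a description and no support. Of 29 tested genes 9 were higher in H1, 3 were higher in H2 and 17 overlapped. Among all tested genes, 10.2% were higher in H1 and 11.9% higher in H2. Of the 29, 8 passed, all higher in H1, where 1.36% of all tested genes passed as higher in H1. The median log2FC over the 29 was 0.57, against 0.00 over all tested genes. LOC102577928, the rhamnosyltransferase SGT3 that completes α-solanine and α-chaconine, was at 220 and 227 CPM in H1 and 73.6 and 39.4 in H2, with a log2FC of 1.98 ± 0.498 (SE). It is located at NW_006239183.1:279904-281586. LOC102584296 (delta(24)-sterol reductase-like, of a family that makes cholesterol or phytosterols) was at 337 and 492 CPM against 131 and 53.6. LOC102599791, an HMG-CoA reductase, which catalyses the committed step of the mevalonate pathway, was at 364 and 493 against 164 and 43.4.

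The other members that passed were LOC102595558 (GABA transaminase 2), LOC102601303 (cellulose synthase-like protein G1), LOC102587419 (a sterol C5(6)-desaturase) and the methylsterol monooxygenases LOC102589817 and LOC102606141. Transaminases and cellulose synthase-like proteins of these families act in glycoalkaloid synthesis in tomato and potato. LOC102595558 was at 853 and 1120 CPM in H1 and 408 and 141 in H2, and LOC102601303 at 394 and 959 against 295 and 53.1. In both, as in every other member that passed, H2 replicate B was the lowest of the 4 libraries. Without H2 replicate B the log2FC of each of these 8 genes was lower, and 5 of them were then below 1.5. It went from 1.78 to 1.06 in LOC102587419, from 1.82 to 1.12 in LOC102606141, from 1.96 to 1.19 in LOC102601303, from 1.85 to 1.27 in LOC102595558 and from 2.05 to 1.38 in LOC102599791. The other 3, LOC102577928, LOC102584296 and LOC102589817, were at 1.60, 1.65 and 1.68. LOC102601303 also depended on H1 replicate B, with 1.17 without it. H2 replicate B was one of the libraries that stood apart, and its part in this result was not tested beyond those values.

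On the scaffold of LOC102577928, 3 of 25 tested genes (12.0%, against 1.36% of all tested genes) passed as higher in H1, and the scaffold was looked at because of that gene. These were LOC102577928, LOC102601303 and LOC102602308, a dioxygenase annotated as hyoscyamine 6-dioxygenase at NW_006239183.1:405605-407238. The last was at 564 and 539 CPM in H1 and at 170 and 22.5 in H2. In low starch tubers the L1 replicates of these genes lay far apart, for LOC102602308 at 38.1 and 270 CPM against 108 and 85.8 in L2. The log2FC of L1 over L2 was positive for all 9 genes, from 0.05 to 1.42, and none passed. The difference between the contrasts had an unadjusted p of 0.126 for LOC102577928 and 0.211 for LOC102595558.

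**Figure D3:**
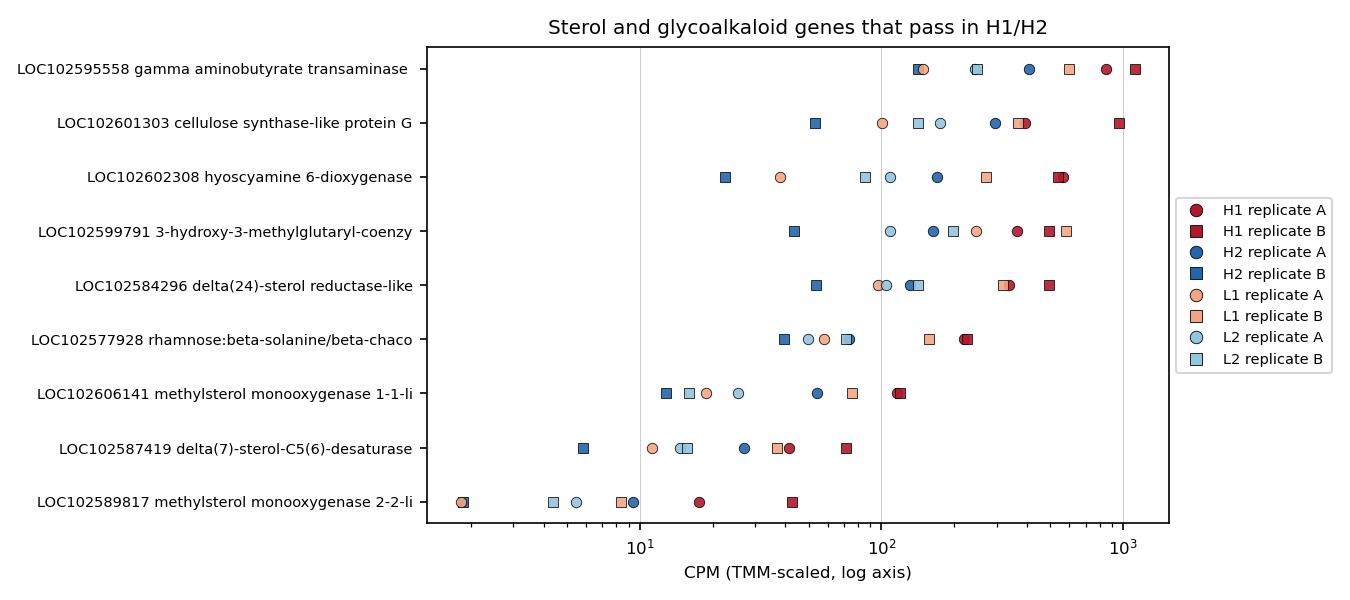
CPM (TMM-scaled, log axis) of the 8 listed sterol and glycoalkaloid genes that passed in H1 over H2 and of LOC102602308, in the 8 libraries, with circles for replicate A and squares for replicate B. H1 (dark red) lies above H2 (dark blue) in each gene, and H2 replicate B is the lowest high starch library, for example at 22.5 CPM for LOC102602308. L1 replicate B lies near H1 in several genes and L1 replicate A does not.

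The same contrast in low starch tubers, L1 over L2, shares no library with H1 over H2, though both share the estimate of the spread. It had 0 genes called (0.0%) and 342 that passed (1.68%), 176 higher in L1 (0.863%) and 166 higher in L2 (0.814%). Of the 595 genes that passed in H1 over H2, 61 also passed in L1 over L2 in the same direction and 6 in the opposite direction (0.0294% of all tested genes). The 61 genes (0.299% of those tested) were 10.3% of the first list and 17.8% of the second, with 37 higher in H1 and L1 and 24 higher in H2 and L2. In 29 of them all 4 libraries of the strong *AGPaseS-a* class lay above all 4 of the weak class, and in 20 they lay below. The 61 were chosen for no overlap within each starch level, so this separation follows in large part from that choice. The share of all tested genes separated in this way was not counted. More widely, 66.7% of the 595 genes had the same sign in L1 over L2, where 53.0% of all tested genes did. No gene was called for a difference between the contrasts, and 321 genes (1.57%) had an unadjusted p under 0.05 for it.

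**Figure D4:**
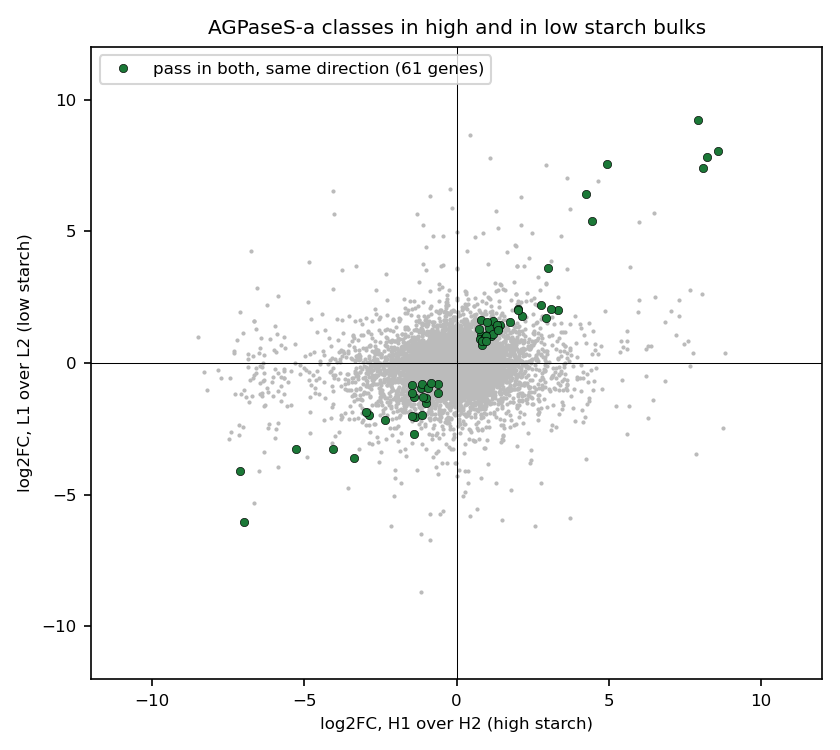
Log2FC of H1 over H2 (x axis) against log2FC of L1 over L2 (y axis) for 20389 tested genes (grey), with the 61 genes that passed in both in the same direction in green. The green points run from the lower left to the upper right by construction, and the grey cloud centres on 0 on both axes.

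Besides LOC102600338 and the 2 genes without counts named above, the 61 genes held several with an annotated product. LOC102605981 (metacaspase-3-like, a cysteine protease) was at 2.62 and 3.22 CPM in H1 and 0.248 and 0 CPM in H2, and at 5.05 and 4.28 against 0.0612 and 0.152 in low starch tubers. LOC102605500, a flavin-containing monooxygenase, was at 113 and 148 CPM in H1 and 394 and 320 in H2, with 148 and 173 in L1 and 387 and 318 in L2. LOC102588699 (nicotinamidase 1-like, which makes nicotinic acid) was at 128 and 72.2 against 40 and 37.8, and at 106 and 97.8 against 44.4 and 39.0. In the last 2 of these, the level in each class was much alike at high and low starch content. Also among the 61 were LOC102592296 (tryptophan synthase alpha chain-like) with a log2FC of 1.18 and 1.12, LOC102586126 (phospholipase A1-IIgamma-like) with 1.12 and 1.02, and LOC102581615 (SULFUR DEFICIENCY-INDUCED 1-like) with -1.37 and -2.03 in high and low starch tubers.

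The 61 genes lay on 28 scaffolds, and 39 of them (63.9%) on 9 scaffolds that each held at least 3, which hold 1019 (5.0%) of the tested genes. These 9 were picked for that count, so the shares are a description. Scaffold NW_006239226.1 held most, 11 genes of the 61, followed by NW_006239002.1 with 6 and NW_006238930.1 with 4. SolTub_3.0 is an assembly of another potato genotype.

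On NW_006239226.1, 15 of 67 tested genes passed in H1 over H2, 13 higher in H1 (19.4%, against 1.36% of all genes) and 2 higher in H2. The scaffold was picked for this share, so the count is a description. In the low starch libraries, which share the estimate of the spread with this contrast, 11 of the 15 passed in the same direction. Of all 595 genes that passed in H1 over H2, 10.3% did so, and 1.68% of all tested genes passed in L1 over L2. The passing genes were spread over the scaffold, from 10414 to 784954, between others that did not pass. Median log2FC of the 67 genes was 0.34 in H1 over H2 and 0.24 in L1 over L2.

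Its genes had unlike functions. LOC102593529 (subtilisin-like protease SBT1.6) was at 165 and 177 CPM in H1 and 88.2 and 94.4 in H2, and at 206 and 165 in L1 and 96.8 and 97.3 in L2. LOC102582131 (snakin-2-like, of a family of antimicrobial peptides) was at 1220 and 1310 CPM in H1 and 542 and 905 in H2, and at 1520 and 1610 against 541 and 455. LOC102590933, a thaumatin-like protein, was at 26.6 and 30.1 against 14.7 and 12.2 in high starch tubers. The strong class was close to 2 times as high as the weak class in the first of these, at 1.88-fold and 1.91-fold. LOC102601655 (SKP1-like, a subunit of ubiquitin ligases) was at 7.07 and 5.04 CPM against 0.673 and 0.730, and LOC102578155, a DEAH RNA helicase, at 66.1 and 166 against 64.6 and 35.6. The helicase separated the H1 and H2 libraries by a narrow margin, and more widely those of L1 and L2, at 195 and 198 against 68.9 and 60.8 CPM.

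Passing only in H1 over H2 on this scaffold were LOC102596487 (arginine decarboxylase, an enzyme of polyamine synthesis) at 101 and 151 CPM against 60.3 and 15.4, LOC102596046 (a proteasome alpha subunit), LOC102599321 (a receptor-like kinase) and LOC102601319 (glycerate dehydrogenase). The genes in the opposite direction were LOC102599978 (WD-40 protein MSI2-like) at 5.64 and 10.7 CPM in H1 against 15.1 and 16.3 in H2, and LOC102602989, a protein of the U11/U12 spliceosome, at 21.8 and 32.5 against 54.3 and 43.0. Both also passed as higher in L2 than in L1. LOC107063081 and LOC102580013, which had no count in H2, the SAUR-like LOC102600864 and LOC102596820 (annotated as a sorbitol-6-phosphate dehydrogenase-like reductase) make up the 15.

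**Figure D5:**
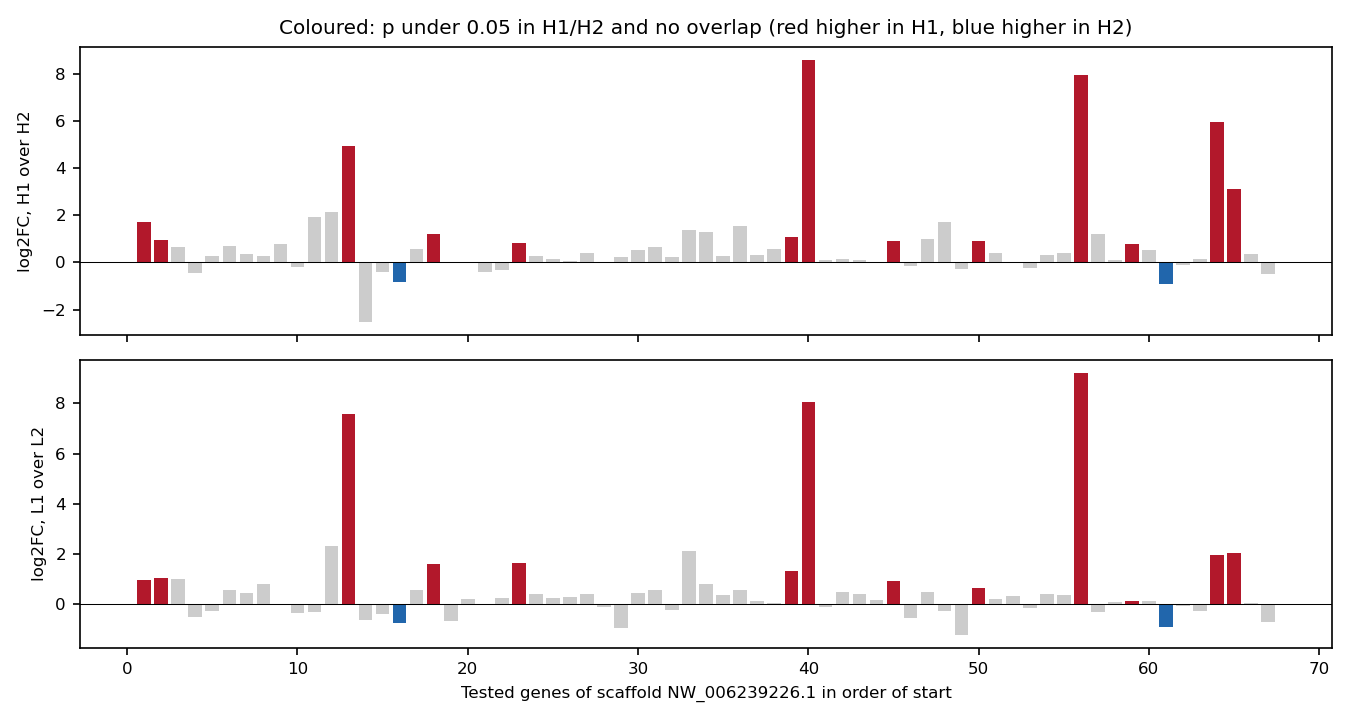
Log2FC of H1 over H2 (upper panel) and of L1 over L2 (lower panel) for the 67 tested genes of scaffold NW_006239226.1 in order of start, coloured where the gene passed in H1 over H2 (red higher in H1, blue higher in H2). Coloured bars of the upper panel keep their sign in the lower panel. Of these 15 genes 11 passed there too, against 10.3% of all 595 genes that passed in H1 over H2.

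The other scaffolds named by the highest share of passing genes were NW_006239771.1, with 3 of 10 higher in H2 (30.0%), and NW_006239118.1, with 2 of 10 higher in H2 (20.0%). Among all tested genes, 1.56% passed as higher in H2. Both scaffolds were picked for this share and have few tested genes, so the counts are a description. The genes of the first were the glutathione S-transferases LOC102599054, LOC102599376 and LOC102600687. LOC102600687 was at 8.5 and 11 CPM in H1 and 27.4 and 14.7 in H2, and at 7.15 and 12.7 in L1 and 27.4 and 21.4 in L2. LOC102599054 rested on 1 replicate of H2, at 18 and 3.65 CPM against 3.02 and 1.31. Those of the second, LOC102603198 and LOC102605441, were at no more than 4.64 CPM in any of the 4 libraries. As these transferases are neighbours and alike in name, reads may have been split between them.

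In some families of neighbouring genes, members differed in opposite directions. These were noticed after the values were seen, so they are a description. On NW_006238958.1, 3 of 243 tested genes passed as higher in H1 (1.23%) and 2 as higher in H2 (0.823%). On NW_006239205.1, 3 of 59 passed as higher in H1 (5.08%) and 7 as higher in H2 (11.9%). Among all tested genes these shares were 1.36% and 1.56%. Next to *IRL* on NW_006238958.1, the isoflavone reductase-like genes LOC102595721 and LOC102596386 were higher in H1, at 13.1 and 21.5 against 5.35 and 0.129 CPM and at 0.0794 and 5.37 against 0.0354 and 0 CPM. LOC102596386 rested on H1 replicate B, with 1 and 115 counts in H1 against 1 and 0 in H2, and its log2FC of 6.86 was 1.83 without that replicate. The log2FC of LOC102595721, 2.65, was 1.69 without H2 replicate B and 7.02 without H2 replicate A. Another member, LOC102596062, was higher in H2, at 0 and 0.0467 CPM in H1 and 0.957 and 0.645 in H2. On NW_006239205.1, the auxin-induced PCNT115-like genes LOC102605459 and LOC102604231 were higher in H2 and LOC102603220 and LOC102581138 higher in H1, the last at 14.4 and 5.14 against 2.66 and 2.92 CPM. Single libraries decided the size of these too, since without H2 replicate A the log2FC of LOC102605459 was -0.99 in place of -2.16 and that of LOC102604231 -1.77 in place of -3.34, and without H1 replicate A that of LOC102581138 was 0.87 in place of 1.80. The *CYP72A219-like* genes LOC102579312 and LOC102578981 on 1 scaffold were at 1.67 and 1.91 against 4.01 and 5.41 CPM and at 10.3 and 12.4 against 6.20 and 4.34. None of these genes passed in L1 over L2.

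On scaffold NW_006239031.1, 3 germin-like genes were higher in H2, again noticed after the values were seen. Of the 136 tested genes of this scaffold 5 passed as higher in H2 (3.68%, against 1.56% of all tested genes). LOC102599162 was at 7.07 and 6.12 CPM in H1 and 60.7 and 21.7 in H2, and LOC102600154 at 8.10 and 10.6 against 29.6 and 20.2. LOC102598504 had no count in H1 and 46 and 41 counts in H2, a level at least 19.2-fold higher. LOC102600154 also passed in low starch tubers in the same direction, at 2.35 and 3.49 CPM in L1 and 7.81 and 29.9 in L2. The libraries of the others overlapped there. LOC102599162 was at 5.17 and 10.5 CPM in L1 and 10.2 and 36.7 in L2, and LOC102598504 had 5 and 8 counts against 7 and 0.

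The study selected 15 genes from comparisons between high and low starch on these libraries, so their values here are not independent of that choice. In H1 over H2, 3 of them passed, all higher in H1, namely *IRL*, *SWEET12-like* and the uncharacterized LOC102603835, at 2.30 and 10.5 CPM against 0.744 and 1.55. Of all tested genes, 2.92% passed and 22.1% had libraries that did not overlap. A further 2 did not overlap without passing, and 10 overlapped, with a log2FC of -3.28 to 1.17. One of the 2 was LOC102588225, a 9-divinyl ether synthase that makes oxylipins, at 162 and 140 CPM in H1 and 274 and 198 in H2. It was 1.56-fold lower in H1 than in H2 and 6.21-fold lower in L1 than in L2, and the difference between the contrasts had an unadjusted p of 0.00442 and an FDR of 1.0 (edgeR's quasi-likelihood test). It lies on the same scaffold as LOC102600338, at NW_006239476.1:196-1934.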

How the data were processed

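Poly(A) RNA of pooled tubers was made into directional libraries and sequenced from both ends. After trimming with Trimmomatic, the authors mapped reads to SolTub_3.0 (TopHat2 2.0.9 and Bowtie2 2.1.0 per the submitters' processing notes) and deposited raw HTSeq counts of 32768 genes. No source used here states how strand was treated in the counting. The deposited tables of H against L comparisons hold the authors' fold changes and p-values and were used only for gene names and positions. The count table also holds 2 columns of no sample, which were not used. Gene symbols were matched to the RefSeq gene table of SolTub_3.0 for 24975 of 25002 annotated genes.

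Genes were filtered with filterByExpr (20389 tested), scaled by TMM and tested with the quasi-likelihood test of edgeR 4.0.16 (R 4.3.3). All 8 libraries entered the fit and each bulk had its own mean, so that 2 libraries per bulk shared 1 estimate of the spread (biological coefficient of variation 0.426). The FDR is the Benjamini-Hochberg adjusted p over all tested genes. P-values measure only the spread between these libraries, which may be technical. The contrasts were H1 minus H2, L1 minus L2 and their difference. The SE of a log2FC was taken as its absolute value over the square root of the F statistic of edgeR's test. Levels are TMM-scaled CPM, computed from the counts. The procedure was tested on simulated data.

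Genes were named as the 12 of smallest p per direction among those with an unadjusted p under 0.05, an absolute log2FC of at least 1.5 and no overlap, up to 4 such genes per list (lists by words of product names), the AGPase genes, genes of the study that do not overlap, and the passing genes of the 3 scaffolds with at least 10 tested genes and the highest share. Others were named after their values were seen. Genes of the study that overlap are given by range, and the scaffold of the gene matched by the *AGPaseS-a* primers was not analysed here. The comparison, lists and rules were chosen with earlier results of these data known. DESeq2 1.42.0, other scalings and filters, a removal of the gene length trend, the replicate letter as a block, 4 libraries only and leaving out each library were tried. A bulk left with 1 library takes its spread from the other bulks.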

Additional observations from a re-analysis of the deposited data

How the results depend on the processing

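The limits of this comparison are the 2 libraries per bulk, the distance between replicates and the low level of most named genes. DESeq2 called 26 genes in H1/H2, 17 in L1/L2 and 6 for the difference, where edgeR's quasi-likelihood test called 0 in each at 619, 345 and 321 genes with an unadjusted p under 0.05. In H1/H2 every edgeR alternative called 0 genes. Among the edgeR alternatives, called genes were counted for L1/L2 under the replicate block only, with 0 called. For the difference they were counted under the block and with 1 library left out, with 0 called in each. Of the 26, 22 fell under the rule for named genes. The 619 genes became 948 with DESeq2, 224 with the 4 libraries of H1 and H2 only and 1090 with H1 replicate B and H2 replicate A only, an alternative chosen after seeing the data. Leaving out 1 library at a time gave 788 to 3393, with 3393 without H1 replicate B and 1324 without H2 replicate A. The 340 genes with a large change and no overlap became 155 with at least 50 counts in both libraries of a bulk, 154 with the 4 libraries only, 590 with H1 replicate B and H2 replicate A only, and 442 to 1862 when 1 library was left out (1862 without H1 replicate B and 927 without H2 replicate A), where a bulk of 1 library overlaps less easily. With the gene length trend removed there were 337. The 61 genes shared with L1/L2 became 129 with H1 replicate B and H2 replicate A only (37 of the 61 among them) and 31 to 113 when 1 library was left out. That count was 36 without L1 replicate B, 31 without L2 replicate B and 113 without H1 replicate B, with 28, 25 and 42 of the 61 among them. Of 82 named genes with a direction, those that changed it were the AGPase genes, which were named whether or not they overlapped. The others were chosen for libraries that did not overlap, so their kept direction follows largely from that choice. Genes of the study that overlap were not among the 82. *AGPS1* had a log2FC of -0.35 with H1 replicate B and H2 replicate A only and -0.35 to 0.78 when 1 library was left out. LOC102577790 had 0.02 with the length trend removed and -0.54 to 0.30 when 1 library was left out, and LOC102600909 had 0.37 with H1 replicate B and H2 replicate A only and -0.61 to 0.32 when 1 library was left out. The cause of these differences was not tested. Libraries with the same letter did not deviate together (r = -0.333 between H1 and H2 replicate A, and -0.139 to 0.134 in the other pairs of bulks), and the replicate block left 0 genes called and 427 at an unadjusted p under 0.05, 262 of them with a large change and no overlap. Crossed pairing, chosen after seeing the data, gave 0, 685 and 309.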
